A study of Mus musculus with 9 samples.

Results

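The 44 genes described here encode the myosins, actins, troponins, tropomyosins, giant scaffold proteins and assembly factors of the sarcomere. They were chosen by name, as a list of sarcomere and contractile genes, from 18193 genes that have a probe set annotated to 1 gene symbol, and all 44 were measured. Together they have 86 such probe sets, and each gene is represented by the probe set with the highest mean over the 9 arrays. RNA of E10.5 mouse forelimb bud cells, sorted for GFP, was read on Affymetrix Mouse430_2 arrays in 3 groups of 3 replicates. PAX3-FKHR GFP+ cells came from Pax3PAX3-FKHR/GFP embryos, in which the targeted PAX3-FKHR-IRESnlacZ allele is recombined by PGK-Cre, a transgene active in all tissues, and the other Pax3 allele carries GFP, so that no intact mouse Pax3 allele remains. PAX3-FKHR is a fusion of the DNA binding domains of PAX3 with the activation domain of FKHR, known from human rhabdomyosarcoma. Control GFP+ cells came from Pax3GFP/+ embryos, which have also lost 1 Pax3 copy to GFP. GFP- cells are the rest of the limb bud. The labels give no genotype for them and the study's text is not uniform on it, so none is stated here. Each replicate is a pool of limb buds from many embryos. Nothing says which pools share a day or litter, so the p-values below measure the spread between these pools.

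The sarcomere is the repeating unit of striated muscle. Thick filaments of myosin pull on thin filaments of actin, and tropomyosin and the troponin complex on the thin filament switch this movement on when calcium rises. Titin and nebulin act as molecular rulers, and Z-disc and M-line proteins anchor the filaments. Most parts exist as fast skeletal, slow skeletal, cardiac or embryonic forms encoded by separate genes, and embryonic skeletal muscle transiently uses forms that are later typical of heart. At E10.5 the forelimb bud holds migrated muscle progenitors, of which few are known to have differentiated. The study states that differentiated skeletal muscle is not yet present there. It proposes that the limb samples probably hold some somitic material, given their neural crest markers and their skeletal myosin or troponin transcripts. Such material would add to the levels below, and its part was not tested.

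Values are log2 levels after RMA, which brings all arrays to a common intensity distribution, so a difference of 1 is a 2-fold difference. All 9 arrays were fitted in 1 limma model, and a gene counts as called where its p, adjusted by Benjamini-Hochberg over 45037 probe sets, is under 0.05 and its log2 difference is at least 0.5. The median level of all probe sets was 5.08 to 5.13 on the 9 arrays. The Pax3 probe set lay at 6.83 to 7.33 in PAX3-FKHR GFP+ cells, 8.94 to 10.22 in control GFP+ cells and 4.77 to 5.17 in GFP- cells. It was thus 2.08 above GFP- cells (adjusted p = 0.0021) in cells that have no intact mouse Pax3 allele, and which transcripts it reads there was not tested. The mean level of 12 skeletal myogenic marker genes, of 13 listed, was 8.44 to 8.81 in PAX3-FKHR GFP+ cells, 8.07 to 8.55 in control GFP+ cells and 4.81 to 5.17 in GFP- cells. The mean of 12 limb mesenchyme markers was 6.91 to 7.38 and 7.19 to 7.43 in the PAX3-FKHR and control GFP+ cells, and 8.90 to 9.24 in GFP- cells. Some genes known from other cell types also differed between groups. Of 9 smooth muscle markers, Myocd, a coactivator of SRF, was called higher in PAX3-FKHR than in control GFP+ cells (1.40, adjusted p = 0.0149), and Acta2, smooth muscle actin, in both GFP+ groups than in GFP- cells (3.20 and 2.23). The mean of these 9 was 5.82 to 6.14 in PAX3-FKHR GFP+ cells, 5.58 to 5.80 in control GFP+ cells and 5.27 to 5.47 in GFP- cells. Each GFP+ group differed from GFP- cells in 5 of 6 genes known from neural crest or glia, 3 being higher and 2 lower, with a mean level of 7.00 to 7.70 in PAX3-FKHR GFP+ cells, 6.64 to 7.83 in control GFP+ cells and 6.44 to 6.65 in GFP- cells. Of 8 limb ectoderm markers, 1, Fgf8, was called higher in PAX3-FKHR than in control GFP+ cells (1.14, adjusted p = 0.0071), as was Pax7 among the skeletal myogenic markers (1.45, adjusted p = 0.0281). In that comparison the other 8 smooth muscle and 7 limb ectoderm markers were not called. Smtn (-0.66) and Sp8 (-0.47) were lower there without overlap of the arrays. Of the skeletal myogenic markers, Myf5 (0.93), Myod1 (1.16), Vgll2 (0.59) and Cdh15 (0.80) were higher and Myf6 (-0.75) lower without overlap, all uncalled. Among them, the paired fit described below called Pax7, Myf5 (adjusted p = 0.0180) and Myog (1.04, adjusted p = 0.0294) higher and Pax3 lower. Of the neural crest or glia genes, Erbb3 (1.94) was higher and Foxd3 (-0.75) lower without overlap, also uncalled. The part of these cell types in the results was not tested. In these bulk samples, fewer cells of a type and less RNA per cell cannot be told apart.

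Among the 9 arrays, 2 stood apart from the rest of their group. On GFP- replicate 3, 12 of the 44 sarcomere genes (27.3%) lay more than 1 log2 unit above both other GFP- arrays, against 109 of all 18193 genes (0.599%). On control GFP+ replicate 3, 5 sarcomere genes (11.4%) lay more than 1 unit below both other control arrays, against 180 of all genes (0.989%). The 5 were Acta1, Actc1, Tnnt2, Ttn and Unc45b. Over 12 skeletal myogenic markers, this array was the lowest control array for 8 and the highest for 4. It was more than 1 unit below both others for 3, among them the determination gene Myod1 (6.38 against 8.29 and 8.37) and Myog, which encodes myogenin (7.45 against 8.98 and 9.17). The 4 highest were Pax3, Lbx1, Met and Myf6, and Lbx1, a marker of migrating progenitors, was at 10.11 there against 9.59 and 9.68. This array was also the lowest control array for 6 of 6 erythroid, 7 of 8 endothelial and 10 of 12 heart markers. So it was for 5 of 6 neural crest or glia and 5 of 8 limb ectoderm markers. Of 12 limb mesenchyme markers it was the lowest for 4 and the highest for 6, and of 9 smooth muscle markers for 3 and 3. The part of these differences in the results below was not tested beyond leaving the array out. Among the other arrays, only PAX3-FKHR GFP+ replicate 3 (Neb, below) and control GFP+ replicate 2 (Cryab, above) stood off by more than 1 unit, each for 1 gene.

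**Figure D1:**
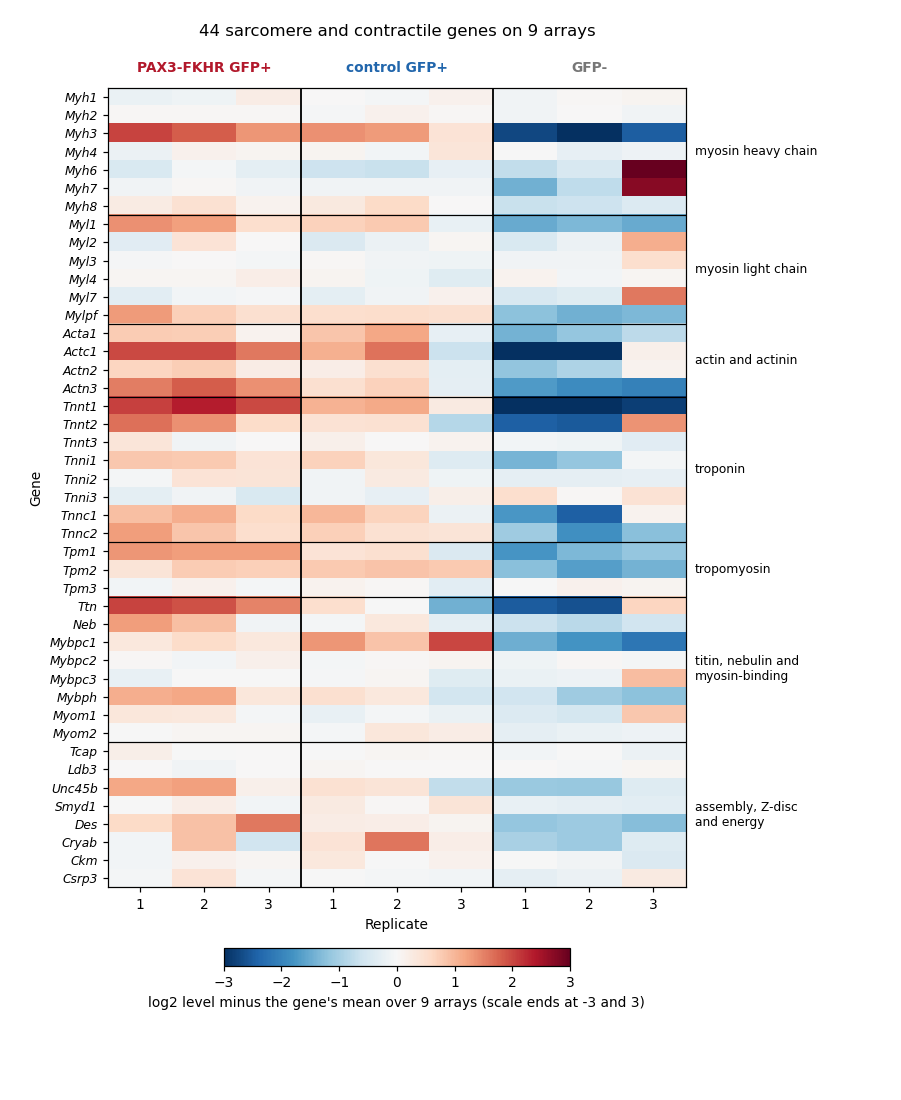
Log2 level of each of the 44 genes (rows, by class) on each of the 9 arrays (columns, replicates 1 to 3 of PAX3-FKHR GFP+, control GFP+ and GFP- cells), as the difference from the gene's own mean over the 9 arrays. Red is above and blue below that mean, and the colour scale ends at -3 and 3. Myh3, Actc1, Tnnt1 and Ttn change colour most between groups, and GFP- replicate 3 is red for Myh6, Myh7 and Tnnt2.

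The mean level of the 44 genes was 6.39, 6.48 and 6.20 on the PAX3-FKHR GFP+ arrays, 6.16, 6.19 and 5.82 on the control GFP+ arrays, and 4.94, 4.92 and 5.67 on the GFP- arrays. All GFP+ arrays thus lay above all GFP- arrays, and the lowest PAX3-FKHR array lay just above the highest control array. In control GFP+ against GFP- cells, 12 of 44 genes (27.3%) were called higher and 0 lower, where 2.79% of all genes were called higher and 1.93% lower. In PAX3-FKHR GFP+ against GFP- cells, 20 (45.5%) were called higher and 0 lower, with 3.9% and 2.79% of all genes. The GFP- arrays are shared by both comparisons, and the 20 include the 12. The count of 20 was 13 without PAX3-FKHR GFP+ replicate 1, 12 without its replicate 2 and 12 without GFP- replicate 1 or 2. Without GFP- replicate 3 the count of 20 was 23 and the count of 12 was 19. The shares of all genes called with an array left out were not taken. The 0 lower calls came from a test that gave unadjusted p under 0.05 for 23 and 24 of the 44 genes in either direction. In PAX3-FKHR GFP+ against control GFP+ cells, 1 gene (2.27%), Tnnt1, was called higher and 0 lower, where the share of all genes was 0.61% higher and 0.203% lower. In this limma comparison 9 of the 44 had an unadjusted p under 0.05. The share of all genes under that unadjusted threshold was not taken, so the counts of 23, 24 and 9 cannot be set against it.

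The median log2 difference of the 44 genes was 0.67 for PAX3-FKHR GFP+ minus GFP- cells, 0.58 for control GFP+ minus GFP- cells and 0.18 for PAX3-FKHR GFP+ minus control GFP+ cells. Over all genes these medians were 0.05, 0.08 and -0.03. In PAX3-FKHR GFP+ minus control GFP+ cells 30 genes lay above 0 and 14 below. Genes whose 3 arrays did not overlap numbered 6 higher and 2 lower in PAX3-FKHR than in control GFP+ cells, with 5.42% and 8.88% of all genes. They numbered 20 and 0 for control GFP+ against GFP- cells (17.2% and 6.96% of all genes), and 24 and 1 for PAX3-FKHR GFP+ against GFP- cells (17.8% and 10.1%). The 1 gene lower was Tnni3, the heart troponin I, and its limma adjusted p was 0.0572.

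PAX3-FKHR GFP+ cells differ from control GFP+ cells in having the fusion allele and in lacking an intact Pax3 allele. Their comparison cannot tell the effects of these apart. Tnnt1, which encodes slow skeletal troponin T, the subunit that ties the troponin complex to tropomyosin, was at 10.43, 10.73 and 10.35 in PAX3-FKHR GFP+ cells, 9.43, 9.52 and 8.66 in control GFP+ cells and 5.37, 5.36 and 5.56 in GFP- cells. The 3 groups did not overlap, and the GFP- arrays agreed within 0.20 of each other. The PAX3-FKHR minus control difference was 1.30 (standard error 0.22, a 2.46-fold difference, limma adjusted p = 0.0327). The call was lost when any of 7 arrays was left out, while the difference stayed at 1.19 to 1.41. The adjusted p was 0.1123, 0.1640 and 0.0902 without PAX3-FKHR GFP+ replicate 1, 2 or 3, and 0.0711 when control GFP+ replicate 1 was dropped. It was 0.0666, 0.0755 and 0.0521 when GFP- replicate 1, 2 or 3, which enter only through the shared spread, was left out. Without control GFP+ replicate 3, the lowest control array, Tnnt1 was still called, at 1.03 (adjusted p = 0.0250).

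Same-numbered PAX3-FKHR and control GFP+ arrays deviated together from their group means, so the 6 arrays were also fitted with the replicate number as a block. No label states such a pairing, which was inferred from the same values that were then tested. This paired fit called 6 genes higher (13.6%) and 0 lower, where 0.912% of all genes were called higher and 0.335% lower. The 6 were Tnnt1 (adjusted p = 0.0103), Ttn (0.0093), Actn3 (0.0149), Tnnt2 (0.0163), Tpm1 (0.0280) and Unc45b (0.0375). Among these, the probe sets of Tnnt2, Tpm1 and Ttn differed in this call. In every same-numbered pair the PAX3-FKHR array was above the control array for 17 genes (38.6%, against 12.8% of all genes) and below it for 3 (6.82%, against 19.9%). The same 6 arrays without the block gave 0 calls, with an adjusted p of 0.1249 for Tnnt1.

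**Figure D2:**
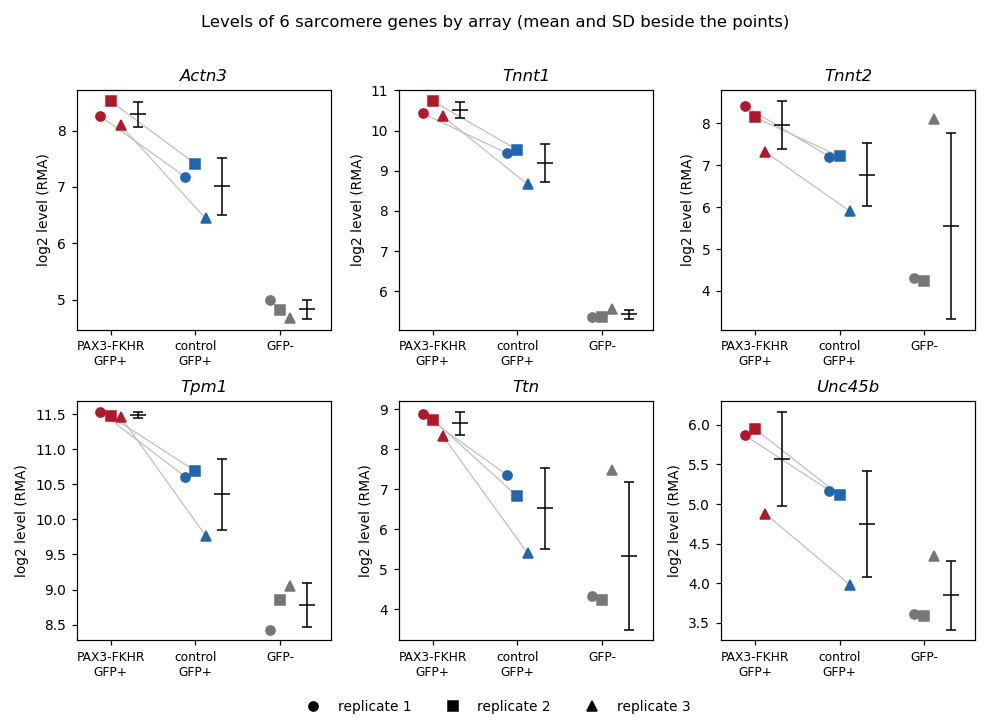
Log2 level (vertical axis) of the 6 genes called higher in PAX3-FKHR than in control GFP+ cells by either fit, on each array, with the mean and SD of each group (n = 3) beside the points. Grey lines join PAX3-FKHR and control arrays of the same replicate number, and all of them run downward to the control array. GFP- replicate 3 lies far above the other GFP- arrays for Tnnt2 (8.11) and Ttn (7.47).

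Ttn encodes titin, the giant spring that links Z-disc and M-line, and was at 8.87, 8.74 and 8.33 in PAX3-FKHR GFP+ cells, 7.35, 6.82 and 5.40 in control GFP+ cells and 4.33, 4.22 and 7.47 in GFP- cells. It had the widest PAX3-FKHR minus control difference of the 44 genes, 2.13 (standard error 0.77, a 4.37-fold difference), with an adjusted p of 0.5560 over all arrays. The standard error of that fit pools the spread of all 3 groups, and over the 6 GFP+ arrays alone it was 0.45 without and 0.25 with the block. Without control GFP+ replicate 3 the difference was 1.57. Of the 6 Ttn probe sets, the 3 brightest were called in the paired fit and the others were not.

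Actn3, the fast-fibre alpha-actinin of the Z-disc, was at 8.25, 8.52 and 8.09 in PAX3-FKHR GFP+ cells, 7.18, 7.41 and 6.44 in control GFP+ cells and 5.0, 4.81 and 4.67 in GFP- cells. These 3 groups did not overlap. Its difference was 1.27 (standard error 0.24, adjusted p = 0.0530), just outside the threshold, and it was called without control GFP+ replicate 2 (1.48, adjusted p = 0.0350). Tpm1, alpha-tropomyosin, was at 11.53, 11.47 and 11.46 in PAX3-FKHR GFP+ cells, 10.61, 10.69 and 9.77 in control GFP+ cells and 8.43, 8.85 and 9.05 in GFP- cells. The PAX3-FKHR arrays lay within 0.07 of each other and above every other array, with a difference of 1.13 (standard error 0.24, adjusted p = 0.0941). All 4 Tpm1 probe sets were higher in PAX3-FKHR GFP+ cells, by 0.84 to 1.44, and the dimmest was called over all arrays (0.84, adjusted p = 0.0316). Tpm1 gives muscle and non-muscle tropomyosins by alternative splicing, and these probe sets do not say which form was measured.

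Tnnt2, the troponin T of heart and of embryonic skeletal muscle, was at 8.41, 8.14 and 7.32 in PAX3-FKHR GFP+ cells, 7.2, 7.21 and 5.90 in control GFP+ cells and 4.31, 4.24 and 8.11 in GFP- cells. PAX3-FKHR and control arrays did not overlap, while GFP- replicate 3 reached the PAX3-FKHR level. The difference was 1.19 (standard error 0.87, adjusted p = 0.8095), and 0.75 without control GFP+ replicate 3. Unc45b, a myosin chaperone of striated muscle, was at 5.87, 5.95 and 4.88 in PAX3-FKHR GFP+ cells, 5.17, 5.11 and 3.98 in control GFP+ cells and 3.61, 3.58 and 4.34 in GFP- cells. Replicate 3 was the low array of both GFP+ groups, so these groups overlapped although the pair differences were 0.70, 0.84 and 0.90. Over all arrays the adjusted p was 0.7072, and the difference of 0.81 was 0.42 without control GFP+ replicate 3.

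The promoters of these genes are shown because they moved together in the paired fit. RefSeq windows on GRCm38.p6, from 250 bases before to 50 bases after a transcription start, were held for 37 of the 44 genes (44 windows), and Actn3 was not among them. The 6 windows of the other 5 called genes follow, read in the direction of transcription. Capitals mark the E-box CANNTG, to which MyoD family factors bind, the MCAT motif CATTCC on either strand, to which TEAD factors bind, and matches to the MEF2 and CArG motifs, to which MEF2 and SRF bind.
Tnnt1, chr7:4515926-4516225, minus strand: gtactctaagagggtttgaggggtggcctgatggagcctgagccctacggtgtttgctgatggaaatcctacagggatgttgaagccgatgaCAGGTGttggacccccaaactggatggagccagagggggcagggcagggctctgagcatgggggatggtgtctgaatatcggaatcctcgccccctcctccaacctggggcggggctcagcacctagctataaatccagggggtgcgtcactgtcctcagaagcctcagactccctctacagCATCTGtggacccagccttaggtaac
Ttn, chr2:76982498-76982797, minus strand: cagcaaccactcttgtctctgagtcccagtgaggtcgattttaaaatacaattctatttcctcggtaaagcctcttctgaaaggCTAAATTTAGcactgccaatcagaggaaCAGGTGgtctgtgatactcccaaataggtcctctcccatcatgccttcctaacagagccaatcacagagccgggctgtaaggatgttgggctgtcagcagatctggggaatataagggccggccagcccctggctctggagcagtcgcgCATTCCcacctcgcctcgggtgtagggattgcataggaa
Tpm1, chr9:67049164-67049463, minus strand: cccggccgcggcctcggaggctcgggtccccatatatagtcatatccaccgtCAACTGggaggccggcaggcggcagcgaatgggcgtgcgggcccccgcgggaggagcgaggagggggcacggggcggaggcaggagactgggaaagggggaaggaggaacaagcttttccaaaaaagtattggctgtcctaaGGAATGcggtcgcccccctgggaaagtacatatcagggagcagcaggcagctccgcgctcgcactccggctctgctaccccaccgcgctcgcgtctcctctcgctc
Unc45b, chr11:82911003-82911302, plus strand: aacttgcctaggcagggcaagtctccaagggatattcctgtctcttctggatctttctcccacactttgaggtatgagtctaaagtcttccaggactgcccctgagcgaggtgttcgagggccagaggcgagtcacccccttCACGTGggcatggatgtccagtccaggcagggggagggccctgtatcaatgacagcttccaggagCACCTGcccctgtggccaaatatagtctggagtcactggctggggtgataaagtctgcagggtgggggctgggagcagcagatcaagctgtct
Tnnt2, chr1:135836084-135836383, plus strand: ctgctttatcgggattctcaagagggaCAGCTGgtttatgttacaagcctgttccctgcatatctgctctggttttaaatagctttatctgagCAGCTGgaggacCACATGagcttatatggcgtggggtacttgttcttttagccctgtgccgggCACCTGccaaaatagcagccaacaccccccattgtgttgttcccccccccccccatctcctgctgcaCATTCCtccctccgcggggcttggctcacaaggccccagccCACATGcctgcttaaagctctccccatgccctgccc
Tnnt2, chr1:135836739-135837038, plus strand: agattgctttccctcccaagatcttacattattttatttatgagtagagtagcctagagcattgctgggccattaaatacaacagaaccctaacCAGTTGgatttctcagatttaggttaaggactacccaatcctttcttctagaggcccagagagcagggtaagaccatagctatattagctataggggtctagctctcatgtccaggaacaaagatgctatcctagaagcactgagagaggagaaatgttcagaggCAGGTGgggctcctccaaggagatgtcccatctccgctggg
The Tnnt1 window has E-boxes at positions -158 and 25 from the start. In Ttn an E-box lies at position -138, a MEF2 match at -166 and an MCAT motif at 12. Tpm1 has 1 E-box, at -198, and 1 MCAT motif, at -56, and Unc45b has 2 E-boxes, at -108 and -43. The first Tnnt2 window has 5 E-boxes and 1 MCAT motif, and the second has 2 E-boxes.

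Over the windows of all sarcomere genes, an E-box was present in 38 of 44 (86.4%), against 72.3% of 32851 windows of the same length over all genes. MCAT was present in 14 (31.8%, against 14.7%), MEF2 in 5 (11.4%, against 3.19%) and CArG, the SRF motif, in 8 (18.2%, against 1.63%). The motifs were searched on both strands. Some genes have more than 1 window. CArG matches were in the windows of 7 genes, among them Acta1 and Actc1, and in none of the 5 genes printed above. These shares are descriptions of letters in the windows, and no binding was measured.

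Most other sarcomere genes did not separate PAX3-FKHR from control GFP+ cells. Des, desmin, the muscle intermediate filament, was at 7.65, 7.96 and 8.66 in PAX3-FKHR GFP+ cells, 7.31, 7.28 and 7.15 in control GFP+ cells and 5.92, 5.99 and 5.79 in GFP- cells. Its groups did not overlap, with a difference of 0.84 (standard error 0.23) that did not pass (adjusted p = 0.2522, and 0.1977 in the paired fit). Mybpc1, slow myosin-binding protein C, ran the other way, at 6.89, 7.12 and 6.89 in PAX3-FKHR GFP+ cells, 7.90, 7.42 and 8.58 in control GFP+ cells and 5.11, 4.78 and 4.41 in GFP- cells. The groups did not overlap either, with a difference of -1.0 (standard error 0.27, adjusted p = 0.2731) that was -0.69 without control GFP+ replicate 3. That array had the highest Mybpc1 of all, while it was the lowest control array for 27 of the 44 genes. The other Mybpc1 probe sets differed by -0.27 and 0.01. Cryab, the small heat shock protein alpha-B-crystallin, was lower in PAX3-FKHR GFP+ cells in every pair, by 0.49 to 0.78, with an adjusted p of 0.0885 in the paired fit.

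**Figure D3:**
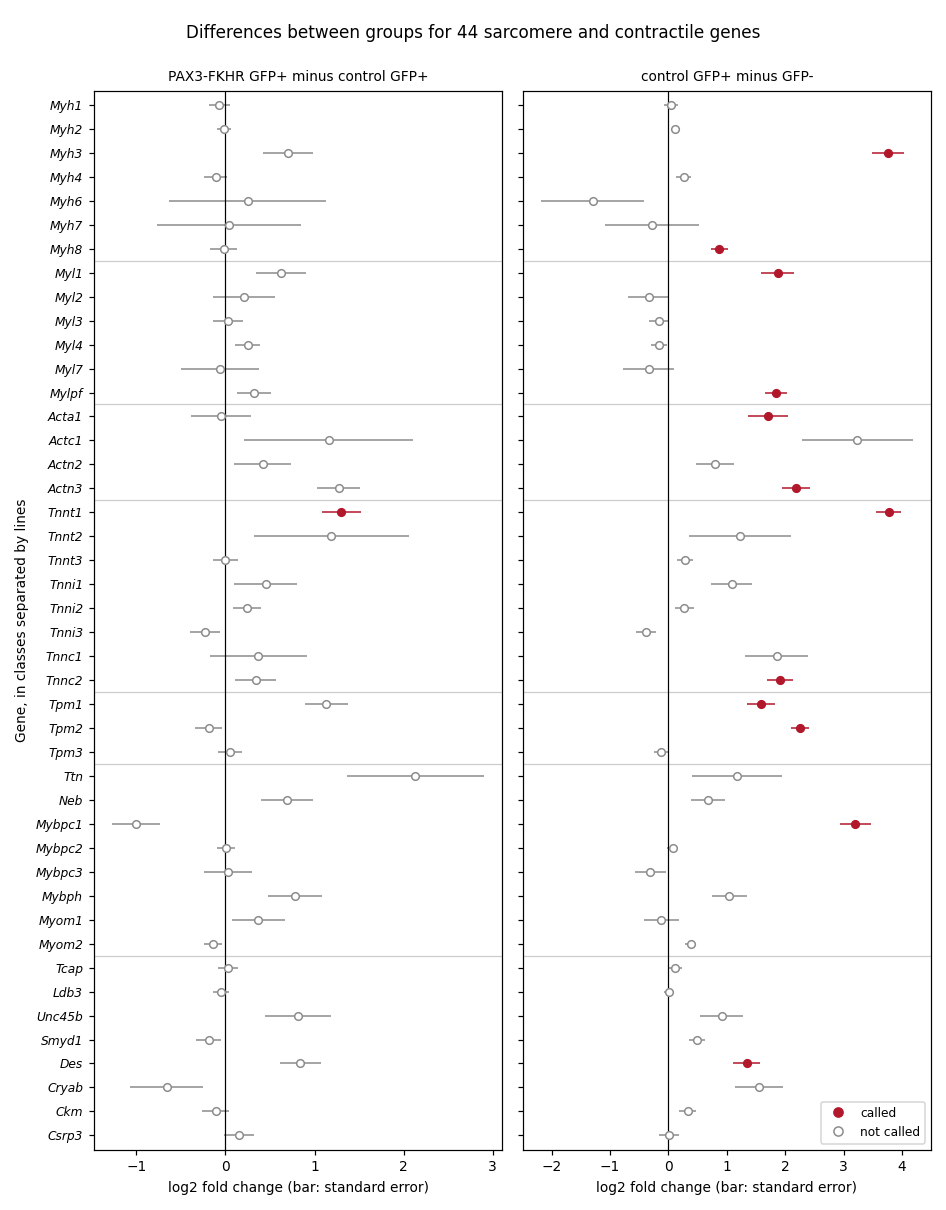
Log2 differences (horizontal axes) with the standard error of the limma fit over 9 arrays, for PAX3-FKHR GFP+ minus control GFP+ cells (left) and control GFP+ minus GFP- cells (right), with genes down the page in 7 classes separated by lines. Filled red points are called. Tnnt1 is the only called gene on the left, 12 are called on the right, and the long bars are those of Myh6, Myh7, Actc1, Tnnt2 and Ttn, the genes for which GFP- replicate 3 stood farthest off.

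Among the 7 myosin heavy chains, the motors of the thick filament, 2 were called higher in control GFP+ than in GFP- cells and the same number in PAX3-FKHR GFP+ than in GFP- cells. Myh3, embryonic myosin heavy chain, was at 9.28, 9.07 and 8.57 in PAX3-FKHR GFP+ cells, 8.62, 8.54 and 7.67 in control GFP+ cells and 4.53, 4.22 and 4.79 in GFP- cells. All GFP+ arrays were far above all GFP- arrays, by 3.76 in control GFP+ cells (standard error 0.28, a 13.6-fold difference, adjusted p = 6.92e-05), while the GFP+ groups overlapped. Myh8, perinatal myosin heavy chain, was at 4.08, 4.29 and 3.95 in PAX3-FKHR GFP+ cells, 4.14, 4.42 and 3.84 in control GFP+ cells and 3.16, 3.22 and 3.42 in GFP- cells, a difference of 0.87 between control GFP+ and GFP- cells (adjusted p = 0.0083). Both lie in a row of skeletal myosin heavy chain genes on chromosome 11, with the adult fast genes Myh2, Myh1 and Myh4 between them. Those 3 stayed between 3.21 and 3.95 on every array, below the median of all probe sets, and Myh4 was at 3.39, 3.69 and 3.66 in PAX3-FKHR GFP+ cells, 3.66, 3.49 and 3.93 in control GFP+ cells and 3.55, 3.33 and 3.41 in GFP- cells.

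The probe sets of Myh1 disagreed. The brightest was flat, but the second brightest, of the type Affymetrix marks _x_at, was at 5.03, 5.5 and 4.06 in PAX3-FKHR GFP+ cells, 3.27, 3.91 and 3.19 in control GFP+ cells and 2.6, 2.89 and 2.77 in GFP- cells, and the third lay in the same order of group means. The second brightest was called higher in PAX3-FKHR than in control GFP+ cells in the paired fit, and both dimmer ones were called in PAX3-FKHR GFP+ against GFP- cells. Probe sets of that type can share probes with other transcripts, here the closely related myosin heavy chains, so that the gene behind this signal is uncertain. Myh6 and Myh7, the alpha and beta heavy chains of heart, which are neighbours on chromosome 14, were highest on GFP- replicate 3 and are described with it below.

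Of 6 myosin light chains, which are subunits of the motor, 2 were called higher in both GFP+ groups than in GFP- cells. Mylpf, the fast regulatory light chain, was at 8.22, 7.66 and 7.42 in PAX3-FKHR GFP+ cells, 7.45, 7.47 and 7.42 in control GFP+ cells and 5.72, 5.51 and 5.59 in GFP- cells. The control GFP+ minus GFP- difference was 1.84 (standard error 0.19, adjusted p = 5.37e-04). Myl1, the fast essential light chain, was at 6.51, 6.36 and 5.64 in PAX3-FKHR GFP+ cells, 5.83, 5.92 and 4.90 in control GFP+ cells and 3.63, 3.78 and 3.62 in GFP- cells, a difference of 1.87 (standard error 0.28, adjusted p = 0.0042). Both are fast skeletal genes, and the other 4, Myl2, Myl3, Myl4 and Myl7, which are known from heart, slow or embryonic muscle, were called in no comparison. Myl4, the embryonic and atrial light chain, was flat by its brightest probe set, at 5.90, 5.90 and 6.04 in PAX3-FKHR GFP+ cells, 5.91, 5.70 and 5.48 in control GFP+ cells and 5.93, 5.76 and 5.90 in GFP- cells. Its second probe set was at 6.12, 6.29 and 5.93, then 5.93, 5.98 and 5.49, then 4.79, 5.03 and 6.85 in the same order of groups, so that GFP- replicate 3 was the highest array and the other GFP- arrays were the lowest.

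The 4 actin and actinin genes had the widest class medians, 2.56 for PAX3-FKHR GFP+ minus GFP- cells and 1.94 for control GFP+ minus GFP- cells. All 4 were called higher in PAX3-FKHR GFP+ than in GFP- cells, and Acta1 and Actn3 in control GFP+ than in GFP- cells. Acta1, skeletal alpha-actin, was at 7.12, 7.11 and 6.47 in PAX3-FKHR GFP+ cells, 7.21, 7.52 and 6.13 in control GFP+ cells and 4.96, 5.20 and 5.59 in GFP- cells. The control GFP+ minus GFP- difference was 1.70 (standard error 0.34, adjusted p = 0.0148). It lost this call without control GFP+ replicate 1 (adjusted p = 0.0531) or GFP- replicate 1 (0.0611) or 2 (0.0525). Its PAX3-FKHR GFP+ minus GFP- call, at 1.66 (adjusted p = 0.0142), was lost without PAX3-FKHR GFP+ replicate 1 or 2 or the same GFP- arrays (adjusted p up to 0.0684). Actc1, cardiac alpha-actin, the main sarcomeric actin of embryonic skeletal muscle, was at 10.86, 10.86 and 10.45 in PAX3-FKHR GFP+ cells and at 4.79, 5.18 and 9.03 in GFP- cells. In control GFP+ cells it averaged 9.56 ± 1.18 (SD, n = 3), with 9.95 on replicate 1, 8.23 on replicate 3 and replicate 2 the highest. GFP- replicate 3 lay above control GFP+ replicate 3, so these groups overlapped, and the difference of 3.23 had an adjusted p of 0.0775. Without GFP- replicate 3 it was 4.58 (adjusted p = 0.0024). The PAX3-FKHR GFP+ minus GFP- difference was 4.39 (adjusted p = 0.0204), a call that was lost when any array of that comparison other than GFP- replicate 3 was left out (adjusted p up to 0.0833). Actn2, the alpha-actinin of heart and of skeletal fibres, was called only in PAX3-FKHR GFP+ against GFP- cells, by 1.22 (adjusted p = 0.0462), and lost its call without any of the same 5 arrays (adjusted p up to 0.1673).

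Among the 8 troponin genes, 2 were called higher in control GFP+ and 4 in PAX3-FKHR GFP+ than in GFP- cells. Tnnt1 differed by 3.77 between control GFP+ and GFP- cells (standard error 0.22, a 13.6-fold difference, adjusted p = 1.94e-05) and by 5.07 between PAX3-FKHR GFP+ and GFP- cells (a 33.6-fold difference, adjusted p = 1.96e-06). Tnnc2, the fast calcium-binding subunit, was at 7.71, 7.29 and 6.98 in PAX3-FKHR GFP+ cells, 7.19, 6.92 and 6.86 in control GFP+ cells and 5.41, 4.63 and 5.20 in GFP- cells, a difference of 1.91 between control GFP+ and GFP- cells (standard error 0.23, adjusted p = 0.0014). The slow and cardiac subunit Tnnc1 was at 7.89, 8.07 and 7.56 in PAX3-FKHR GFP+ cells, 7.97, 7.65 and 6.80 in control GFP+ cells and 5.23, 4.54 and 7.09 in GFP- cells. Its control GFP+ minus GFP- difference of 1.85 (adjusted p = 0.0758) was 2.59 without GFP- replicate 3 (adjusted p = 0.0044). Tnni1, slow troponin I, had 1.08 (adjusted p = 0.1051) and 1.49 (adjusted p = 0.0238) in the same 2 fits. In PAX3-FKHR GFP+ against GFP- cells both were called, Tnnc1 by 2.22 (adjusted p = 0.0348) and Tnni1 by 1.54 (adjusted p = 0.0265), and both calls were lost without any PAX3-FKHR GFP+ array or GFP- replicate 1 or 2 (adjusted p up to 0.1286 and 0.1023).

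The other troponin genes differed little between groups. Tnnt3 and Tnni2, the fast troponins T and I, differed by 0.28 and 0.27 between control GFP+ and GFP- cells, and neither was called in any comparison over all arrays. Tnni2 was called higher in PAX3-FKHR GFP+ than in GFP- cells without PAX3-FKHR GFP+ replicate 1 (0.66, adjusted p = 0.0449) and with array weights (0.52, adjusted p = 0.0483), against 0.51 (adjusted p = 0.0963) over all arrays. They are close neighbours on chromosome 7. Tnni3, the neighbour of Tnnt1 on the same chromosome and the adult heart troponin I, averaged 5.03 ± 0.18 in PAX3-FKHR GFP+ cells, 5.25 ± 0.22 in control GFP+ cells and 5.63 ± 0.25 in GFP- cells (SD, n = 3 each). It was called in no comparison over all arrays. Without GFP- replicate 2 it was called lower in PAX3-FKHR GFP+ than in GFP- cells, by -0.75 (adjusted p = 0.0392), against -0.61 over all arrays.

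Tpm1 and Tpm2 among the 3 tropomyosins were called higher in both GFP+ groups than in GFP- cells. Tpm2, beta-tropomyosin, was at 10.01, 10.37 and 10.34 in PAX3-FKHR GFP+ cells, 10.41, 10.47 and 10.40 in control GFP+ cells and 8.37, 7.97 and 8.2 in GFP- cells. Its control GFP+ minus GFP- difference was 2.25 (standard error 0.15, adjusted p = 2.92e-05), and 3 of its 4 probe sets were called. PAX3-FKHR and control arrays did not overlap, but the difference of -0.19 was small (standard error 0.15, adjusted p = 0.8149), and the other 3 probe sets gave 0.01 to 0.23. Tpm1 differed by 1.58 between control GFP+ and GFP- cells (standard error 0.24, adjusted p = 0.0041), and its probe sets differed in this call. Tpm3, which most cell types express in non-muscle forms, was at 11.38, 11.59 and 11.41 in PAX3-FKHR GFP+ cells, 11.58, 11.50 and 11.14 in control GFP+ cells and 11.44, 11.59 and 11.54 in GFP- cells, with the groups overlapping throughout.

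Of the 8 titin, nebulin and myosin-binding genes, 1 was called higher in control GFP+ cells (Mybpc1) and 4 in PAX3-FKHR GFP+ cells (Mybpc1, Ttn, Neb and Mybph) than in GFP- cells. The Ttn call, at 3.31 (adjusted p = 0.0284), was lost without any of the PAX3-FKHR GFP+ arrays or GFP- replicate 1 or 2 (adjusted p up to 0.1113), and that of Neb without any of 4 arrays, replicates 1 and 2 of both groups (adjusted p up to 0.0806). Ttn probe sets also differed in call between PAX3-FKHR GFP+ and GFP- cells. Mybpc1 differed by 3.20 between control GFP+ and GFP- cells (standard error 0.27, a 9.19-fold difference, adjusted p = 1.66e-04), and all 3 of its probe sets were called. Mybph, myosin-binding protein H, was at 6.28, 6.34 and 5.52 in PAX3-FKHR GFP+ cells, 5.67, 5.5 and 4.63 in control GFP+ cells and 4.60, 4.12 and 3.95 in GFP- cells. PAX3-FKHR arrays were above the same-numbered control arrays in all 3 pairs, though the groups overlapped, and all GFP+ arrays were above all GFP- arrays. The differences were 1.82 for PAX3-FKHR GFP+ minus GFP- cells (adjusted p = 0.0051) and 1.04 for control GFP+ minus GFP- cells (adjusted p = 0.0730). Neb, nebulin, which sets thin filament length, differed by 1.36 (adjusted p = 0.0174) and 0.67 (adjusted p = 0.2112) in the same comparisons, at levels of 4.40 or less. Without PAX3-FKHR GFP+ replicate 3, Neb was called higher in PAX3-FKHR than in control GFP+ cells, by 1.09 (adjusted p = 0.0461), against 0.69 over all arrays. Mybpc2, the fast myosin-binding protein C, and the M-line gene Myom2 stayed at 3.08 to 3.95 on all arrays. Myom2 was at 3.33, 3.40 and 3.40 in PAX3-FKHR GFP+ cells, 3.29, 3.69 and 3.57 in control GFP+ cells and 3.08, 3.14 and 3.20 in GFP- cells.

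Among the 8 assembly, Z-disc and energy genes, Des was called higher in control GFP+ than in GFP- cells, by 1.34 (standard error 0.23, adjusted p = 0.0070), and Des and Unc45b in PAX3-FKHR GFP+ than in GFP- cells, by 2.18 (adjusted p = 3.01e-04) and 1.72 (adjusted p = 0.0192). Unc45b lost that call without any of 4 arrays, replicates 1 and 2 of both groups (adjusted p up to 0.0889). The 2 Des probe sets differed in call in both comparisons, and those of Cryab in control GFP+ against GFP- cells. Cryab was at 4.54, 5.51 and 4.05 in PAX3-FKHR GFP+ cells, 5.03, 6.22 and 4.83 in control GFP+ cells and 3.66, 3.53 and 4.24 in GFP- cells, just short of a call between control GFP+ and GFP- cells (1.55, adjusted p = 0.0544), and called without control GFP+ replicate 3 (1.81, adjusted p = 0.0454). Smyd1, the methyltransferase that works with myosin chaperones, was at 6.18, 6.41 and 6.12 in PAX3-FKHR GFP+ cells, 6.47, 6.23 and 6.59 in control GFP+ cells and 5.99, 5.93 and 5.89 in GFP- cells. Every GFP+ array was above every GFP- array by this probe set, with 0.49 (adjusted p = 0.0705) for control GFP+ minus GFP- cells. Smyd1 probe sets differed in call between PAX3-FKHR GFP+ and GFP- cells, where this one was not called. Of the genes of the mature Z-disc and energy supply, Tcap (telethonin), Ldb3 (the PDZ protein ZASP), Ckm (muscle creatine kinase) and Csrp3 (muscle LIM protein), none was called in any comparison, and their group differences were 0.33 or less.

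By their brightest probe set, 12 of the 44 genes had group means below the median of all values, 5.11, in every group: Myh1, Myh2, Myh4, Myh6, Myh8, Myl2, Tnnt3, Neb, Mybpc2, Myom2, Ldb3 and Csrp3. Without present or absent calls, means at this level cannot be told from background. Single arrays lay above the median for Myh6 (7.80 on GFP- replicate 3), Myl2 (5.48 on the same array) and Csrp3 (5.33 on PAX3-FKHR GFP+ replicate 2 and 5.20 on GFP- replicate 3). Of these 12, Myh8 and Neb were called over all arrays by the brightest probe set, and Myh1 by its dimmer ones.

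GFP- replicate 3 was the highest GFP- array for 26 of the 44 genes. The 12 for which it lay more than 1 log2 unit above both other GFP- arrays were Myh6, Myh7, Myl2, Myl7, Actc1, Actn2, Tnnt2, Tnni1, Tnnc1, Ttn, Mybpc3 and Myom1. They include 3 of the 4 genes known mainly from heart, 3 of the 4 known from heart and slow skeletal muscle and 2 of the 3 known from embryonic heart and skeletal muscle, against 4 of the other 33. These 4 were Actn2, Tnni1, Ttn and Myom1, which heart muscle also uses at some stage, so the classes do not separate heart from skeletal genes cleanly. Myh6 was at 3.78, 4.19 and 3.94 in PAX3-FKHR GFP+ cells, 3.62, 3.57 and 3.98 in control GFP+ cells and 3.51, 3.75 and 7.80 in GFP- cells, so that 1 array alone rose above 4.19. Myh7 was at 5.30, 5.44 and 5.30, then 5.30, 5.31 and 5.30, then 3.97, 4.64 and 8.13 in the same order of groups. With that array left out, Myh7 exceeded the GFP- level by 1.04 in PAX3-FKHR GFP+ cells (adjusted p = 0.0115) and by 1.00 in control GFP+ cells (adjusted p = 0.0198), both called, where over all arrays the differences were -0.23 and -0.28. Myl7, the atrial regulatory light chain, was at 4.91, 5.15 and 5.19 in PAX3-FKHR GFP+ cells, 4.95, 5.12 and 5.36 in control GFP+ cells and 4.75, 4.86 and 6.82 in GFP- cells.

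The fast skeletal genes did not share this excess. GFP- replicate 3 differed from the mean of the other GFP- arrays by -0.08 for Myl1, -0.03 for Mylpf, -0.24 for Actn3 and 0.18 for Tnnc2, against 4.17 for Myh6, 4.05 for Actc1, 3.84 for Tnnt2, 3.82 for Myh7 and 3.19 for Ttn. For Tnnt1 it was 0.19 and for Myh3 0.41. Of 13 heart marker genes outside the sarcomere, 12 were measured, and their mean level was 4.58 on GFP- replicate 3, against 4.35 and 4.33 on the other GFP- arrays, 4.32 to 4.35 in PAX3-FKHR GFP+ cells and 4.18 to 4.40 in control GFP+ cells. Nppa, which encodes atrial natriuretic peptide, was at 4.82 on GFP- replicate 3, against 3.58 and 3.35. Over the 12 heart markers this array was the highest GFP- array for 6 and the lowest for 3, and Nppa was the only one more than 1 unit above both others. Among the transcription factor genes, Gata6 was at 6.14 there against 5.52 and 5.39, and Gata5 at 4.81 against 4.45 on both others. Nkx2-5 was at 5.03 against 5.03 and 5.30, Gata4 at 4.37 against 4.34 and 4.29, and Tbx20 at 3.29 against 3.37 and 3.05. On the 3 GFP- arrays, replicate 3 last, the mean of 6 erythroid markers was 7.00, 10.66 and 11.52, and that of 8 limb ectoderm markers was 5.40, 6.18 and 6.72. The part of other cell types in this array was not tested.

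**Figure D4:**
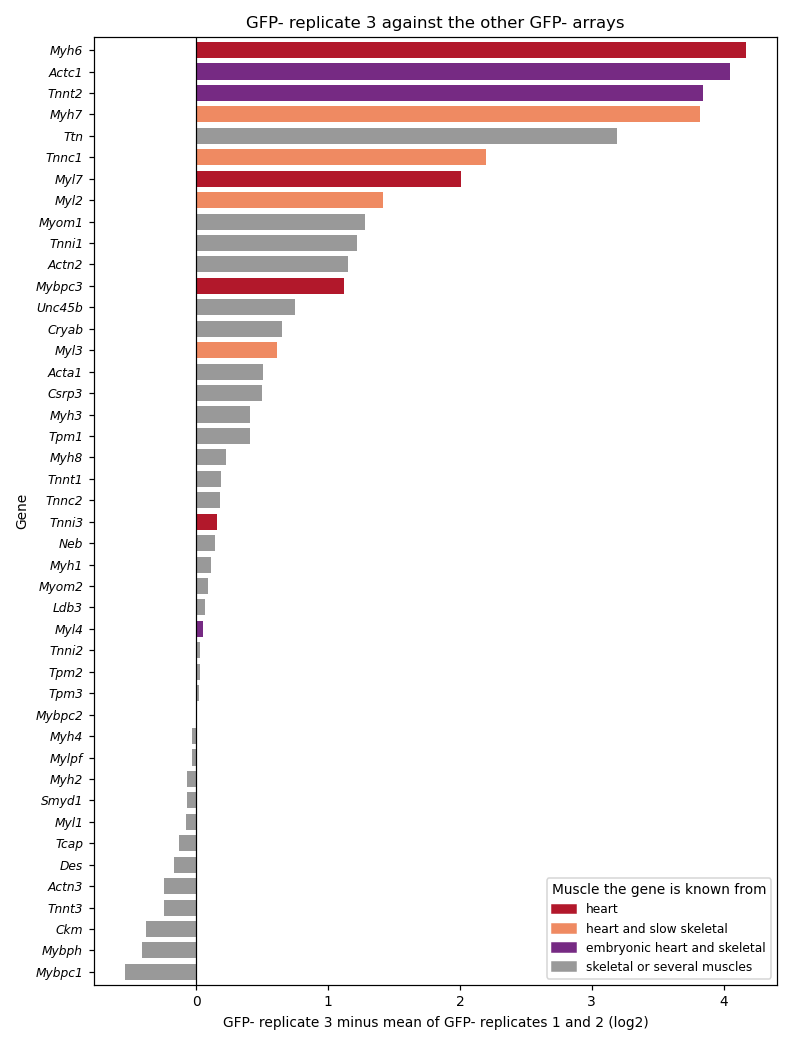
Log2 level on GFP- replicate 3 minus the mean of GFP- replicates 1 and 2 (horizontal axis) for each of the 44 genes, largest at the top, with bars coloured by the muscle each gene is known from. Myh6 (4.17), Actc1 (4.05), Tnnt2 (3.84) and Myh7 (3.82) are at the top, and the fast skeletal genes lie near 0.

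Leaving this array out changed the counts. Control GFP+ against GFP- cells then had 19 sarcomere genes called higher instead of 12, all 12 being kept, with Myh7, Actc1, Actn2, Tnnt2, Tnni1, Tnnc1 and Ttn added. Tnnt2 was then at 2.5 (adjusted p = 0.0136) and Ttn at 2.24 (adjusted p = 0.0314), against 1.22 (adjusted p = 0.4480) and 1.18 (adjusted p = 0.4018) over all arrays. In PAX3-FKHR GFP+ against GFP- cells, 23 were called instead of 20, with Myh7, Tnnt2 and Myom1 added. In PAX3-FKHR GFP+ against control GFP+ cells no sarcomere gene was called without it, nor without GFP- replicate 1 or 2. Without control GFP+ replicate 3, 16 genes were called higher in control GFP+ than in GFP- cells, Tnni1, Mybph, Unc45b and Cryab being added to the 12. The shares of all genes called in these fits were not taken. The changed counts therefore cannot be read as particular to sarcomere genes.

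Other genes of the sarcomere, outside the 44, were read from 3 further lists, for which the shares called over all genes given above serve as background (higher and lower, 0.61% and 0.203% for PAX3-FKHR against control GFP+, 2.79% and 1.93% for control GFP+ against GFP-, 3.9% and 2.79% for PAX3-FKHR GFP+ against GFP- cells). Of 20 measured Z-disc and titin-associated genes (21 listed), 0 were called higher and 1 lower in PAX3-FKHR than in control GFP+ cells, while control GFP+ against GFP- cells gave 4 higher and 0 lower. The 1 lower was Fhl1, a LIM protein of muscle, at 8.70, 8.74 and 8.71 in PAX3-FKHR GFP+ cells, 9.71, 9.83 and 9.74 in control GFP+ cells and 7.97, 7.98 and 8.48 in GFP- cells. It was 1.04 lower in PAX3-FKHR than in control GFP+ cells (standard error 0.15, adjusted p = 0.0159), with arrays of each GFP+ group within 0.12 of each other. Fhl1 was 1.62 higher in control GFP+ than in GFP- cells (adjusted p = 3.11e-04). Synpo2l, a Z-disc protein, was at 8.6, 9.20 and 8.77 in PAX3-FKHR GFP+ cells, 8.06, 8.10 and 7.13 in control GFP+ cells and 3.82, 4.0 and 5.35 in GFP- cells. It differed by 3.37 between control GFP+ and GFP- cells (a 10.4-fold difference, adjusted p = 0.0010). Of 13 measured thin filament and M-line genes (15 listed) none was called in PAX3-FKHR against control GFP+ or control GFP+ against GFP- cells, and 3 were called higher in PAX3-FKHR GFP+ than in GFP- cells. Lmod3, leiomodin 3, which nucleates actin filaments, differed by 0.46 between control GFP+ and GFP- cells (adjusted p = 0.0285), under the minimum of 0.5 for a call, and Myom3, an M-line protein, by 0.50 (adjusted p = 0.0589). Of 12 chaperone and energy genes, 0 were called between PAX3-FKHR and control GFP+ cells and 1 was called higher in control GFP+ than in GFP- cells. This was Ckb, brain-type creatine kinase, at 7.87, 8.11 and 7.65 in PAX3-FKHR GFP+ cells, 8.59, 8.36 and 8.51 in control GFP+ cells and 6.98, 6.95 and 6.83 in GFP- cells (1.57, adjusted p = 3.40e-04). Next in that list was Hspb2, a small heat shock protein, with 0.46 (adjusted p = 0.1654).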

How the data were processed

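RNA of sorted forelimb bud cells was amplified in 2 cycles and hybridised to Affymetrix Mouse430_2 arrays. The authors deposited log2 values per probe set, made with RMA (version not given in the sources used here): background corrected, set to 1 common distribution and combined from single probes to probe sets. No present or absent calls were used here. Of 45101 probe sets, 64 array controls were set aside, and 45037 were tested. The platform annotation gives 34945 of them 1 symbol, 932 several and 9160 none, and each of the 44 genes stands for its brightest probe set that has 1 symbol.

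All 9 arrays were fitted with limma 3.58.1 in R 4.3.3 (group means, eBayes with an intensity trend) and p-values were adjusted by the Benjamini-Hochberg method over all probe sets. Calls needed an adjusted p under 0.05 and a log2 difference of at least 0.5. The members, classes and marker lists were chosen with earlier results of these data known. Values on every array are given for genes called between PAX3-FKHR and control GFP+ cells in the fit of all arrays or in the paired fit, for up to 3 genes of each class with the smallest adjusted p between control GFP+ and GFP- cells, for genes spreading over more than 2 log2 units within a group, and for a few others chosen after their values were seen. Sarcomere genes outside the 44 are named where called between PAX3-FKHR and control GFP+ cells, or as the 2 of a list with the smallest adjusted p between control GFP+ and GFP- cells. Marker genes of other cell types were chosen for naming after their values were seen.

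Replicate numbers come from the sample titles, which state no pairing. After group means were removed, same-numbered PAX3-FKHR and control GFP+ arrays had correlations of 0.164, 0.472 and 0.287 and were taken as pairs. Same-numbered control GFP+ and GFP- arrays correlated by 0.0651, 0.0682 and -0.205 and were not. Differently numbered PAX3-FKHR and control GFP+ arrays gave -0.367 to 0.000384. PAX3-FKHR GFP+ replicate 1 and GFP- replicate 3 correlated by 0.319, and PAX3-FKHR GFP+ replicate 3 and GFP- replicate 1 by 0.322. Same-numbered arrays of these groups gave -0.237, 0.155 and -0.288. Correlations of this size thus also occurred without a shared number.

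Alternatives were other scalings, no trend, array weights, the replicate number as a block, the 6 arrays compared, other fold thresholds (1.5 or none), a filter keeping probe sets over the overall median on 3 arrays (31 of the 44 genes), averages over each gene's probe sets, the study's local pooled error test rebuilt with 100 bins and a spline of 10 degrees of freedom, and each array of the groups compared left out in turn. Fits of PAX3-FKHR against control GFP+ cells without each GFP- array were added after the values were seen. The fits were tested on simulated data. With 100 probe sets changed by each amount in PAX3-FKHR against control GFP+ cells, limma recovered 72 at a log2 difference of 1 and 92 at 2, with 5 false calls among 45037 probe sets. The paired fit recovered 17 and 74, with 1 false call. The simulated arrays had independent noise, with nothing shared by arrays of the same number, so these counts do not rate that fit on paired arrays. The rebuilt pooled error test found 73 and 99, with 235 false calls. Each simulated probe set had the within-group SD estimated from its own arrays. A test that takes its error from intensity assumes otherwise, so this count does not rate it on the real arrays. Precision is limited by having 3 arrays a group. Promoter windows are those of RefSeq on GRCm38.p6.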

Additional observations from a re-analysis of the deposited data

How the results depend on the processing

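Of 2469 values of single genes under the alternatives, 2343 kept their side of the threshold, 63 passed it newly and 59 no longer passed it. The other 4 changed sign with a call on one side. Changes of sign without any call are counted among the 2343. An example is Acta1 in PAX3-FKHR minus control GFP+ cells, at -0.46 to 0.24 with 1 array left out. The 1 sarcomere gene called higher in PAX3-FKHR than in control GFP+ cells was the least stable count. It was 0 after another quantile normalization or with only the 6 arrays compared, 3 with array weights or with all probe sets of a gene averaged, and 2 with the filter on low probe sets. With the replicate number as a block it was 2 over all arrays and 6 over the 6 arrays compared. The local pooled error test also gave 6. That test made 235 false calls on data simulated with each probe set's own SD, a setting unlike its assumption. Leaving out each of the 6 GFP+ arrays in turn gave 0 to 2. Fits of this comparison without GFP- replicate 1, 2 or 3, chosen after seeing the data, each gave 0, with Tnnt1 unchanged at 1.30.

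For control GFP+ against GFP- cells, 12 genes higher became 20 with array weights and 22 with the local pooled error test, and 11 to 19 with 1 array of either group left out. For PAX3-FKHR GFP+ against GFP- cells, 20 higher became 12 to 23 with 1 array of either group left out. The 0 lower there became 1, Tnni3, with the filter and with all probe sets averaged, and was 0 to 1 with 1 array left out. The block over the 6 arrays kept 9 of the 12 calls between control GFP+ and GFP- cells and 18 of the 20 between PAX3-FKHR GFP+ and GFP- cells. Apart from the paired fit of PAX3-FKHR and control GFP+ arrays, the share of all genes called was not taken for the alternatives. Their counts therefore have no background beside them.

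The changes of sign with a call on one side concerned Myh1 and Myh7. Myh1 was at 1.24 in PAX3-FKHR GFP+ minus GFP- cells with all its probe sets averaged, against -0.03 by the brightest, since the dimmer probe sets differ. Myh7 was at 0.66 in PAX3-FKHR GFP+ minus GFP- cells by the local pooled error test, which compares medians. With 1 array left out, Myh7 ran from -1.04 to 1.04 in PAX3-FKHR GFP+ minus GFP- cells and from -1.08 to 1.00 in control GFP+ minus GFP- cells, the highest values being those without GFP- replicate 3.

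With 3 arrays a group, a log2 difference near 1 can be missed, as the simulated data showed. Levels near the lower end of the arrays cannot be told from background without detection calls, and probe sets of related genes can share probes.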
